A study of Mus musculus with 4 samples.

Results

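The insulin and fasting response was followed in 9 genes that carry the signal of insulin to the hepatocyte nucleus or respond to it there: Igfbp1, G6pc, Pck1, Irs1, Irs2, Insr, Foxo1, Ppargc1a and Fbp1. They were matched by gene name, and every array probe that bears 1 of these names was kept. This gave 14 probes, all well above background in at least 3 of 4 mice of a genotype, among 20831 such probes that stood for 16314 genes. Livers came from untreated male mice of a mixed strain, aged 2 months. The 4 knockout mice had a conditional liver knockout of NIPP1, a nuclear regulator of protein phosphatase 1 encoded by Ppp1r8, and the 4 others were controls. The sources used here do not give the Cre line, the deleted part of the gene, the feeding state or the hour of sampling, and fasting genes depend strongly on feeding and hour. Total RNA of 1 knockout and 1 control mouse was hybridised together, in different dyes, on each of 4 Agilent two-colour arrays. The dye of the knockout sample was Cy3 for replicates 1 and 2 but Cy5 for replicates 3 and 4, and no mouse was used on more than 1 array.

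As background, insulin binds its receptor on the hepatocyte, the receptor phosphorylates the docking proteins IRS1 and IRS2, and the kinase AKT then keeps the transcription factor FOXO1 out of the nucleus. In fasting insulin falls, FOXO1 enters the nucleus and, with the coactivator encoded by Ppargc1a and with signals of glucagon and glucocorticoids, drives genes of glucose output such as G6pc and Pck1, as well as Irs2 and Igfbp1. Igfbp1 encodes a secreted binding protein for insulin-like growth factors, and its liver transcript is known for quick falls after feeding.

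FOXO factors are known to act through short elements near the start of Igfbp1 and G6pc, and Pck1 is the classic hormone-controlled gene of glucose synthesis, so the sequences just upstream of these 3 genes are shown. Each runs 5′ to 3′ over the 250 bases before the RefSeq start on GRCm38.p6, all on the plus strand, at chr11:7197537-7197786 for Igfbp1, chr11:101367466-101367715 for G6pc and chr2:173152823-173153072 for Pck1. Capitals mark CAAAACA, a core of FOXO elements, on either strand (TGTTTTG where it lies on the minus strand).
Igfbp1: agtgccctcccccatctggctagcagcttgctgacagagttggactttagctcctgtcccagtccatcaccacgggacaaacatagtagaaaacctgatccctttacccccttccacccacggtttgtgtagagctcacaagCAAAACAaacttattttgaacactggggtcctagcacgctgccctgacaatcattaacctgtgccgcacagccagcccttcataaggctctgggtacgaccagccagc
G6pc: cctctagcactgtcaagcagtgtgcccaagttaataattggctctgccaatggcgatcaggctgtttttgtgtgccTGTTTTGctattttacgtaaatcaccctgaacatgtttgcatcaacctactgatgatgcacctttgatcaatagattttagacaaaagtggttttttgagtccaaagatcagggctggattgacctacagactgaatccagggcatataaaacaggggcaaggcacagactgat
Pck1: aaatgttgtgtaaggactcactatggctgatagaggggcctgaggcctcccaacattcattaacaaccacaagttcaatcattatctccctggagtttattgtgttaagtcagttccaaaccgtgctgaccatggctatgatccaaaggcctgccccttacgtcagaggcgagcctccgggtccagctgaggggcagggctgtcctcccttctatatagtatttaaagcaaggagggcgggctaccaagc

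RefSeq windows, from 250 bases before to 50 after the start, were held for 8 of the 9 genes, and Insr is named only. CAAAACA occurred on either strand in 6.28% of all 32851 windows of this length. Counted from the start of transcription, it began at base -108 of Igfbp1 on the plus strand, and on the minus strand it lay at -174 of G6pc, -37 of Irs2, and -111 and -32 of Irs1. No match lay in the windows of Pck1, Foxo1, Ppargc1a and Fbp1. A second FOXO core, GTAAACA, was in 3.65% of all windows and TGACGTCA, the full form of the cyclic AMP element, in 1.79%. Neither exact sequence was in a window of these genes, so no matches of different motifs overlapped there. Variants of the motifs, such as ttacgtca in the Pck1 sequence above, were not searched for, so a cyclic AMP element is not excluded. Either FOXO core was in 9.63% of windows, and a match is a description of letters, not of binding.

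Igfbp1 had the third lowest estimate of the 16314 tested genes, at log2 -1.64 knockout over control, which is 0.32 times the control level. By unadjusted p in limma it ranked 1026, with 6.28% of genes at a smaller p. The 9 genes were chosen with earlier results of these data known, and none passed an adjusted p of 0.05. Pck1 was the next lowest of the 9, at -0.94. Its ratio was below 0 on each array, as for 10.8% of all genes. G6pc and Irs2 had estimates of -0.61 and -0.66 that came with a ratio above 0 on replicate 4. Irs1 had an estimate of 0.35, and Insr, Foxo1, Ppargc1a and Fbp1 lay between -0.08 and 0.11. Over all genes the limma fit called 0 genes (0%) at an adjusted p of 0.05, where the smallest was 0.0536, and 3707 at an unadjusted p under 0.05. A separate-channel fit, which treats the dyes of an array as 2 linked samples, called 2764 genes at an adjusted p of 0.05, so the count at this threshold depends on the model.

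Igfbp1 was measured by 1 probe at chr11:7102442-7102501 on mm9, the build of the array files, as are all probe positions here. Exon and UTR positions of probes were not annotated here. Its log2 ratios were -3.06, -2.11, -1.53 and 0.13 on replicates 1 to 4. Knockout signal was thus far lower on 3 arrays and slightly higher on replicate 4, where the processed signals gave only 0.0065. The limma estimate was -1.64 ± 0.33 (SE, n = 4 arrays), with a 95% interval of -2.54 to -0.75 and an adjusted p of 0.104. The mean Cy5-over-Cy3 difference of this probe, which the fit removes as a dye effect, was 0.94, and 0.435% of genes had a larger one in size. Because the dye orientations held different mice, a dye effect of this probe and a difference between those mice cannot be told apart. Without the dye term the adjusted p of limma was 0.220.

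Within a dye, where knockout and control mice can be set side by side, the normalized log2 Igfbp1 signal was 13.44 and 14.45 in the 2 Cy3 knockout mice against 15.23 and 16.26 in the 2 Cy3 controls. In Cy5 it was 14.72 and 15.36 in knockout mice against 16.50 and 16.56 in controls. The knockout mice lay below the controls in each dye, with gaps of 0.78 and 1.14 between the nearest mice. Replicate 4 carried the higher of the Cy5 knockout signals and the lower of the Cy3 control signals. This comparison across arrays was chosen after the values were seen. Such a separation in both dyes was met by Igfbp1 and Pck1, 2 of the 9 genes, against 9.57% of all genes with knockout below control and 11.4% with knockout above, a direction that none of the 9 showed.

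**Figure D1:**
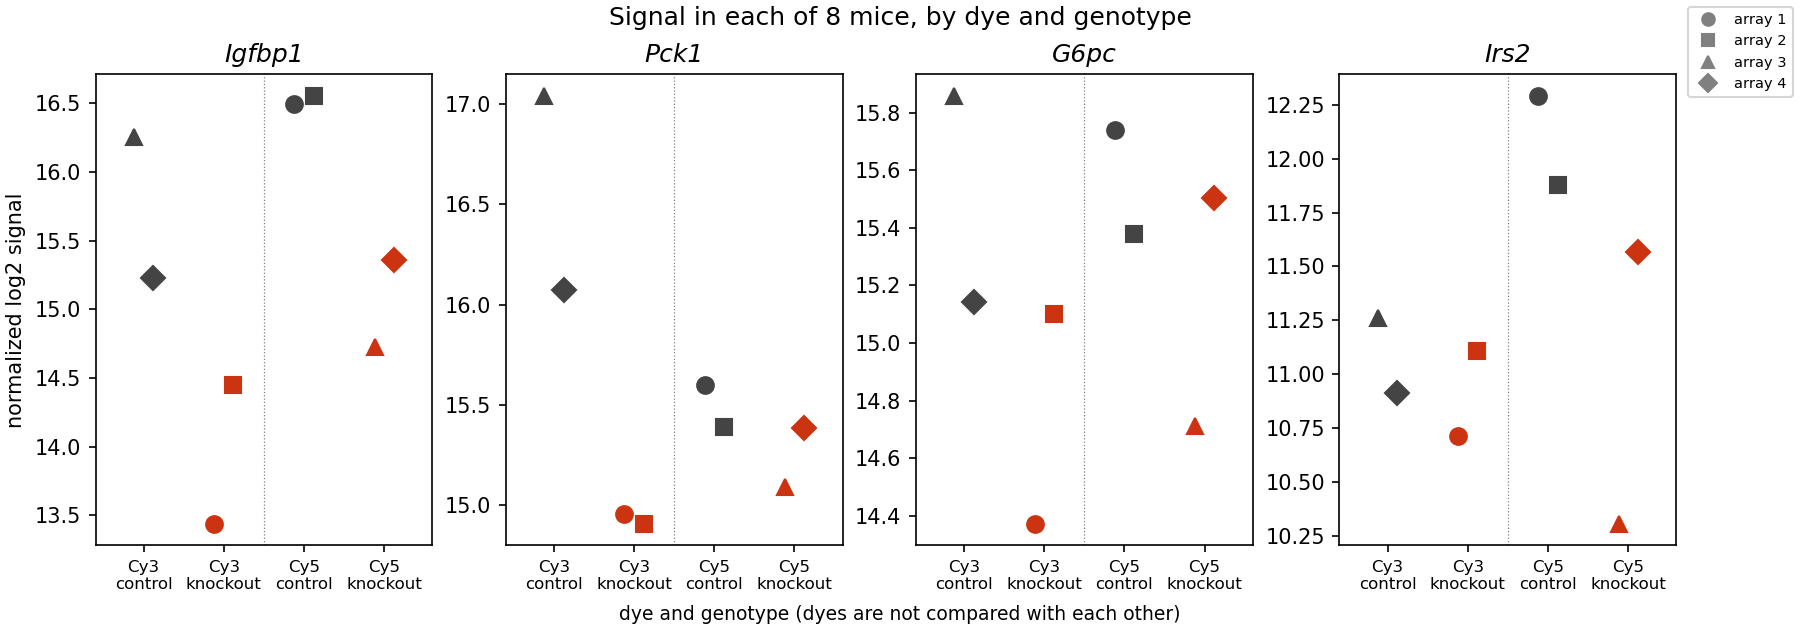
Normalized log2 signal (vertical axis) of Igfbp1, Pck1, G6pc and Irs2 in each of the 8 mice, by dye and genotype; symbols mark the array, grey the controls and red the knockouts. Knockout Igfbp1 signal is at most 14.45 in Cy3 and 15.36 in Cy5, below each control of the same dye, while the genotypes of Pck1 nearly touch in Cy5.

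In bulk liver, fewer cells of a type and less RNA per cell cannot be told apart. Of 12 hepatocyte markers 11 were on the array and well above background in each mouse. Their summed log2 signal in Cy3 was 19.77 and 19.91 in knockout against 19.60 and 19.74 in control mice. In Cy5 it was 20.15 and 20.21 against 20.10 and 20.18, so the genotypes overlapped in Cy5 only. Of 9 biliary markers 8 had estimates above 0. Of these, 3 (Krt19, Spp1 and Tspan8, 33.3% of the list) were higher at an unadjusted p under 0.05 in limma, against 12.6% of all genes. The 9 markers were dim, with 7 to 9 well above background in control mice and all 9 in each knockout mouse. Their summed log2 signal was 10.84 to 11.02 in knockout and 10.46 to 10.79 in control mice, with no overlap. All 8 sinusoidal endothelial markers had estimates below 0, with a median of -0.13, and none was past that p, against 10.1% of all genes lower. Their summed log2 signal in Cy3 was 14.23 and 14.30 in knockout against 14.35 and 14.39 in control mice. In Cy5 it was 14.16 and 14.21 against 14.29 and 14.43, so knockout lay below control within each dye. This was not particular to endothelial markers. The sums of the lymphocyte markers and of the insulin signalling cascade, a list described below, also lay below control within each dye. For the cascade, knockout against control was 15.10 and 15.13 against 15.18 and 15.21 in Cy3. In Cy5 the cascade was at 15.10 and 15.19 against 15.22 and 15.25. Medians of the Kupffer, stellate, lymphocyte, erythroid and adipocyte lists lay between -0.21 and -0.05. The part of these cells in the values of the 9 genes was not tested. Ppp1r8 itself gave -0.60, -0.73, -0.74 and -0.63 on the 4 arrays, so each array ran in the labelled direction. Its estimate was -0.68 ± 0.05 (SE, n = 4), with a limma adjusted p of 0.0589. Another, similarly dim probe of Ppp1r8 had a mean of -0.65. In the processed signals the means of these probes were larger in size, at -1.33 and -1.22. No spot was saturated, and 52.7% to 56.3% of spots were well above background. The labels say that the mice were separate animals, and the number of arrays limits the precision.

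Pck1 encodes cytosolic phosphoenolpyruvate carboxykinase, which commits oxaloacetate to glucose synthesis. Its probe at chr2:172984307-172984366 gave log2 ratios of -0.65, -0.49, -1.95 and -0.69. All 4 arrays lay below 0, replicate 3 far more so than the rest. The limma estimate was -0.94 ± 0.22 (SE, n = 4), with a 95% interval of -1.55 to -0.34 and an adjusted p of 0.123. Without replicate 3 it was -0.63, so that array moved the value by 1.5 times. Pck1 was the only one of the 9 genes below 0 on each array, against 10.8% of all genes. Such a run of signs was thus about as frequent among the 9 as among all genes. None of the 9 was above 0 on each array, against 13.3%. In Cy3 its signal was 14.91 and 14.96 in knockout against 16.07 and 17.04 in control mice. In Cy5 it was 15.09 and 15.39 against 15.39 and 15.60, where the nearest mice of the genotypes differed by only 0.0067.

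G6pc encodes the catalytic subunit of glucose-6-phosphatase, which releases free glucose from the hepatocyte. Its probe at chr11:101238947-101239006 gave -1.37, -0.28, -1.15 and 0.36. Signal was lower in knockout on 3 arrays and higher on replicate 4, as for Igfbp1. The limma estimate was -0.61 ± 0.32 (SE, n = 4), with a 95% interval of -1.48 to 0.27 and an adjusted p of 0.341. It was -0.33 without replicate 1 and -0.23 without replicate 3, so its size rests on those arrays, and it was -0.98 without replicate 4. In Cy5 the genotypes overlapped, with 14.71 and 15.51 in knockout against 15.38 and 15.74 in control mice.

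Fbp1 encodes fructose-1,6-bisphosphatase, the enzyme of glucose synthesis between the steps of Pck1 and G6pc. Its probe at chr13:62966175-62966234 gave -0.02, -0.39, 0.55 and 0.29. The sign followed the dye of the knockout sample, but not in the processed signals, which gave 0.27, -0.13, 0.35 and -0.04. The estimate of 0.11 ± 0.09 (SE, n = 4) had a 95% interval of -0.13 to 0.35 and a limma adjusted p of 0.521. It was 0.02 without replicate 1, 0.04 without replicate 3, 0.20 without replicate 2 and 0.17 without replicate 4. The 3 enzymes of glucose synthesis among the 9 genes therefore did not share a direction on replicates 3 and 4.

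Irs2 encodes the docking protein whose liver transcript is high in fasting. Its probe at chr8:11004490-11004549 gave -1.58, -0.77, -0.95 and 0.66, again with replicate 4 apart in sign. The limma estimate was -0.66 ± 0.31 (SE, n = 4), with a 95% interval of -1.51 to 0.19 and an adjusted p of 0.297. It was -0.26 without replicate 3 and -1.06 without replicate 4. In Cy5 the knockout mice, at 10.30 and 11.57, lay below the controls at 11.88 and 12.29, while in Cy3 the genotypes overlapped, with 10.71 and 11.11 in knockout against 10.91 and 11.26 in control mice.

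Irs1 encodes the related docking protein. Its brighter probe at chr1:82229692-82229751 gave -0.45, 0.16, 0.93 and 0.76, and a dimmer probe at chr1:82233564-82233623 gave -0.15, 0.17, 0.31 and -0.01. The brighter probe was above 0 on 3 arrays, and both probes were lowest on replicate 1. The limma estimate of the brighter probe was 0.35 ± 0.12 (SE, n = 4), with a 95% interval of 0.03 to 0.67 and an adjusted p of 0.197. The mean over the probes was 0.21, and the estimate without replicate 2 was 0.20. The docking proteins thus had estimates of opposite sign, and the difference between them was not tested.

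Insr encodes the insulin receptor. Its brightest probe, at chr8:3151667-3151726, gave -0.08, 0.01, -0.31 and 0.05, with an estimate of -0.08 ± 0.08 (SE, n = 4), a 95% interval of -0.29 to 0.13 and a limma adjusted p of 0.566. Means of the 2 dimmer probes were -0.05 ± 0.08 and -0.00 ± 0.06 (SD, n = 4). The interval does not reach the estimate of Igfbp1.

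Foxo1 encodes the insulin-restrained transcription factor. Its brighter probe at chr3:52150183-52150242 gave -0.13, 0.26, -0.60 and 0.18, and a neighbouring probe at chr3:52153289-52153348 gave -0.13, 0.23, -0.54 and -0.03. The probes followed each other from array to array, with signs that differed between arrays. The estimate was -0.07 ± 0.16 (SE, n = 4), with a 95% interval of -0.50 to 0.35 and a limma adjusted p of 0.806.

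Ppargc1a encodes a coactivator that is induced in fasted liver. Its brighter probe at chr5:51848928-51848987 gave -0.55, -0.25, -0.09 and 0.72, and the dimmer one at chr5:51846926-51846985 gave -0.15, -0.05, -0.09 and 0.51. Replicate 4 was the only array above 0 for either probe. The estimate was -0.04 ± 0.15 (SE, n = 4), with a 95% interval of -0.46 to 0.38 and a limma adjusted p of 0.899.

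**Figure D2:**
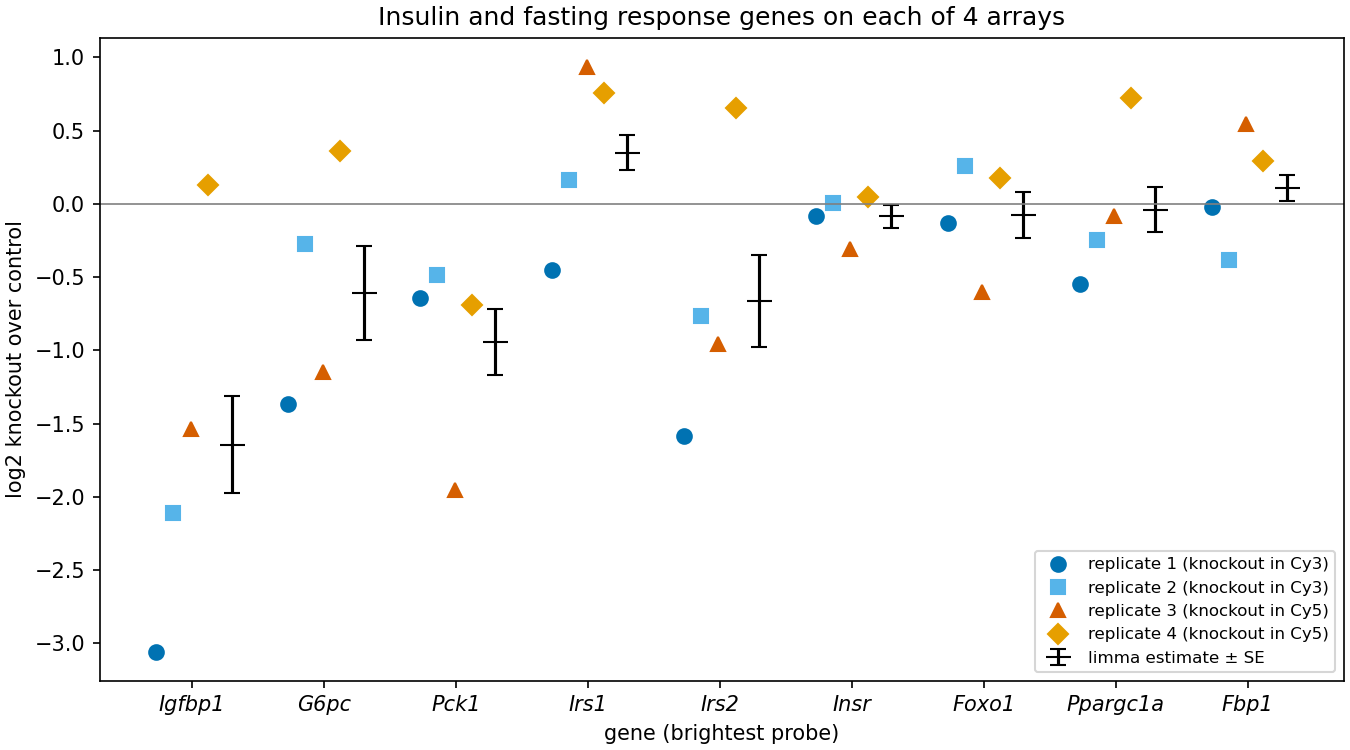
Log2 knockout over control (vertical axis) of the 9 genes on each of the 4 arrays (coloured symbols, with the dye of the knockout sample) and the limma estimate ± SE (black). Igfbp1 spans -3.06 to 0.13, Pck1 is below 0 on each array, and replicate 4 is above 0 for Igfbp1, G6pc and Irs2.

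At an unadjusted p under 0.05 in limma, Igfbp1 and Pck1 were lower and Irs1 higher, against 10.1% of all genes lower and 12.6% higher. At an adjusted p of 0.1 none of the 9 was called, against 2.05% of genes lower and 3.51% higher. The exact two-sided sign-flip permutation test of the 4 ratios gave 0.125 for Pck1, the smallest p that 4 arrays allow, 0.25 for Igfbp1 and Irs2, and 0.375 for G6pc and Irs1. In the separate-channel fit, 2 of the 9 genes were lower at an adjusted p of 0.05, against 7.27% of all genes: Igfbp1, with an adjusted p of 0.00905, and Pck1, with 0.0341. That fit gave the same estimates, and an adjusted p of 0.135 for G6pc, 0.134 for Irs2 and 0.113 for Irs1. Its linked-sample model assumes 1 correlation, 0.452, for all spots.

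**Figure D3:**
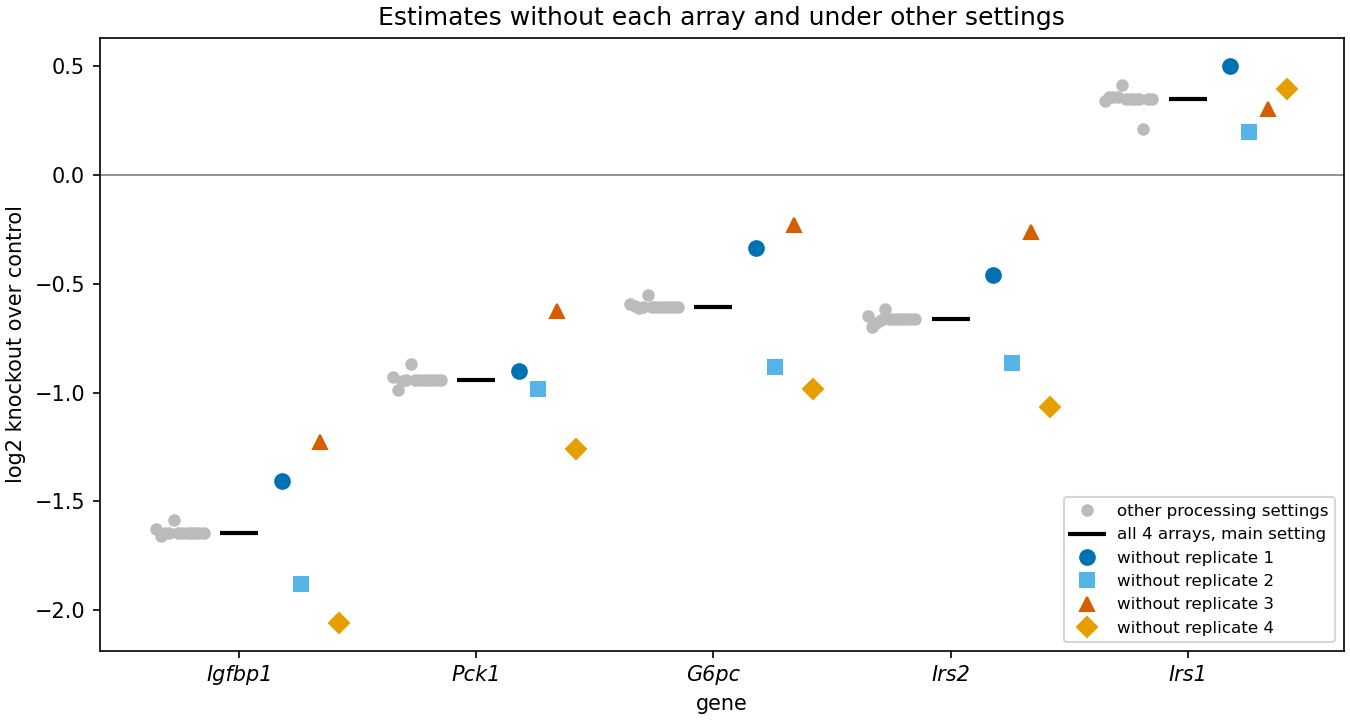
Estimates of log2 knockout over control (vertical axis) for 5 genes with all 4 arrays (black bar), without each array in turn (coloured symbols) and under the other processing settings (grey). Igfbp1 ranges from -2.06 without replicate 4 to -1.23 without replicate 3, and each of the 5 genes keeps its sign.

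Across the 8 mice, with each dye centred on its mean, the Igfbp1 signal had a Pearson correlation of 0.90 with G6pc, 0.83 with Pck1, 0.70 with Irs2 and -0.80 with Fbp1. Foxo1 and Ppargc1a correlated at 0.95 with each other. These are descriptions over 8 mice that share arrays, dyes and genotype. The tested genes most like Igfbp1 by this measure were Gtf3c1 at 0.991, Pkd1 at 0.986, the unnamed probe A_55_P1998209 at 0.985, Rad50 at 0.981 and Rbm18 at 0.980. G6pc ranked 337 and Pck1 856 of 16313 genes, so many genes of other kinds had a closer pattern. The ratios of Gtf3c1, for example, were -0.42, -0.33, -0.17 and -0.01, a small difference of the same order over the arrays as that of Igfbp1.

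Clock genes were examined because the hour of sampling is not known. Of 10 tested, 0 were lower and 2 (20%) higher at an unadjusted p under 0.05 in limma, against 10.1% and 12.6% of all genes. Their median was -0.01. Dbp, an output gene of the clock, gave 0.52, 0.84, 1.25 and 0.15, and Cry2, a clock repressor, -0.10, -0.13, 0.46 and 0.63. The summed log2 signal of the list overlapped, at 13.50 to 14.07 in knockout and 13.31 to 13.96 in control mice, and its part in the values of the 9 genes was not tested.

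Genes that respond to acute stress and glucocorticoids, which are known also to act on Igfbp1 and G6pc, varied over the arrays as well. The 8 glucocorticoid-responsive genes had medians of -0.79, 0.19, -0.90 and 0.60 on replicates 1 to 4, and the 10 immediate early genes had -0.47, 0.08, -0.16 and 0.40. Egr1, an immediate early transcription factor, gave -2.87, -1.36, -0.80 and 1.43, and Mt1, a metallothionein, gave -3.24, -0.72, -1.24 and 1.07. Both were named after their values were seen because, like Igfbp1, they were lowest on replicate 1 and above 0 on replicate 4. Other genes of these lists ran differently: Zbtb16 gave -1.0, 1.59, -1.75 and -1.80 and Dusp1 -0.56, 1.76, -0.80 and 1.21, and both list medians were above 0 on replicate 2, where Igfbp1 was at -2.11. None of these 18 genes had an unadjusted p under 0.05 in limma, against 10.1% of all genes lower and 12.6% higher. Their part in the values of Igfbp1, G6pc and Irs2 was not tested. Pancreatic acinar transcripts also differed between arrays, with medians of 4.16, -2.62, -0.16 and -1.04 over 14 of 14 markers. Their summed log2 signal was 12.21 to 15.83 in knockout and 12.36 to 13.89 in control mice, and their part was not tested either. Of the 6 islet markers 1 was tested, the insulin gene Ins2, at 0.02.

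The wider pathway was described through 8 lists, with all tested genes as background: their median was -0.00, 8211 of 16314 had estimates below 0, and 10.1% were lower and 12.6% higher at an unadjusted p under 0.05. Of 27 tested genes of the insulin signalling cascade, 4 were lower (14.8%) and 2 higher (7.41%) at that p, and the median was -0.07. Prkcz, an atypical protein kinase C, gave 0.55, 0.60, 1.30 and 0.85, with an estimate of 0.82 ± 0.09 (SE, n = 4) and a limma adjusted p of 0.0607. Mlst8, a subunit of the mTOR complexes, had an estimate of 0.48 and Grb2, an adaptor, one of -0.18. Of 17 tested inhibitors of insulin signalling, 14 had estimates below 0, but 1 was lower (5.88%, against 10.1% of all genes) and 0 were higher (against 12.6%) at that p, Phlpp2 being the lower one at -0.22.

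Of 25 tested transcription regulators of gluconeogenesis, 0 were lower and 1 was higher (4.00%) at an unadjusted p under 0.05, against 10.1% and 12.6% of all genes, with a median of -0.09. The higher one was Esrra, a nuclear receptor partner of the Ppargc1a product, at 0.24, 0.40, 0.39 and 0.32 on the arrays and with a limma adjusted p of 0.0784. Nr3c1, the glucocorticoid receptor, had an estimate of -0.14 and Crem one of -0.11. Of 22 tested other gluconeogenic enzymes and carriers, 1 was lower (4.55%) and 7 were higher (31.8%), against the same 10.1% and 12.6%, with a median of 0.01. Slc25a10, the mitochondrial dicarboxylate carrier, had an estimate of 0.53, Gpt, an alanine aminotransferase, 0.27, and Slc25a11, the oxoglutarate carrier, -0.25. The lower values of Pck1 and G6pc were thus not shared by most of this list.

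The FOXO-linked and fasting-induced list, which does not hold the 9 genes, had 4 genes lower (17.4%) and 5 higher (21.7%) of 23 tested at an unadjusted p under 0.05, against 10.1% and 12.6% of all genes. Its median was -0.11, with values of -0.019 without replicate 1, -0.0046 without replicate 3 and -0.18 without replicate 4. Mttp, which loads lipid onto lipoproteins, had an estimate of 0.19, Gabarapl1, an autophagy gene, -0.51 and Bnip3, a mitophagy receptor, 0.26. Of these 3, Bnip3 was not past that p. Named here as the ends of the list, Fgf21 had 1.16 and Bcl6 -0.74. Both were past that p, with signs that differed between arrays. Fgf21 gave -0.65, 1.60, 1.33 and 2.38. Bcl6 gave -2.11, -3.22, 1.41 and 0.94, so its sign followed the dye of the knockout sample. Of 18 tested insulin- and feeding-induced genes, 14 had estimates above 0, 6 were higher (33.3%, against 12.6%) and 1 lower (5.56%, against 10.1%) at that p, and the median was 0.29, or 0.17 without replicate 1. Elovl6, a fatty acid elongase, gave 0.70, 0.48, 1.35 and 0.88, with an estimate of 0.85 ± 0.10 (SE, n = 4) and a limma adjusted p of 0.0617. Nr1h3 (LXR alpha) had 0.26 and Mlxipl (ChREBP) 0.32, the latter from 0.003, 0.02, 0.51 and 0.73 on the arrays. List medians on the single arrays were 0.07, -0.19, 0.57 and 0.30, so replicate 2 went the other way. The higher medians were those of replicates 3 and 4, where the knockout sample was in Cy5.

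Of 17 tested genes of glycogen metabolism, 1 was lower (5.88%) and 3 were higher (17.6%) at that p, against 10.1% and 12.6% of all genes, with a median of -0.01. Gyg, which primes glycogen, had an estimate of 0.20 and Ugp2, which makes its sugar donor, 0.22. Of the 8 tested other IGF binding proteins and IGFs, none was lower (against 10.1%) and 1 was higher (12.5%, against 12.6%), Igfbp3, at 0.41, named here since it is the single gene past that p. Other list medians moved with single arrays too: that of the inhibitors was -0.025 without replicate 3, that of the regulators -0.03 without replicate 1 and -0.15 without replicate 2, and those of the other enzymes, glycogen and IGF lists changed sign in at least 1 such fit, within -0.05 to 0.10. No gene of these lists passed an adjusted p of 0.05 in limma.

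**Figure D4:**
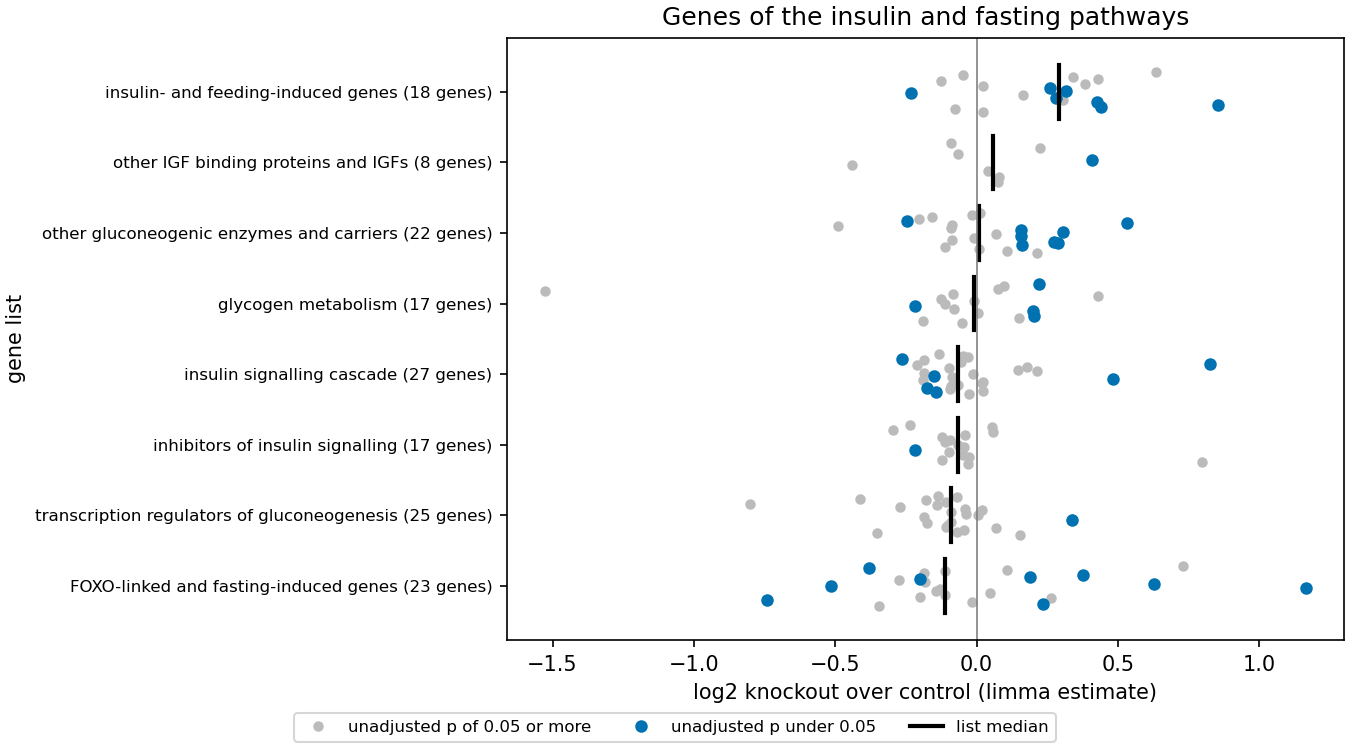
Limma estimates of log2 knockout over control (horizontal axis) for the tested genes of 8 pathway lists (vertical axis, points), in blue where the unadjusted p was under 0.05, with each list's median as a bar. Medians run from -0.11 for FOXO-linked and fasting-induced genes to 0.29 for insulin- and feeding-induced genes, and single genes lie on either side of 0 in each list.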

How the data were processed

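Scanner files deposited by the authors hold, per spot and dye, the mean intensity, the local background intensity and processed intensities, made with Agilent Feature Extraction 10.7.3.1 per the file headers. The authors' deposited value table holds log2 ratios, and all 43020 values per array lay within 1e-04 of log2 knockout over control from the processed intensities, so nothing about its scale or direction stayed unknown. Its column medians were -0.05, 0.14, -0.18 and -0.18.

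The normexp background correction had an offset of 50, and its parameters left out spots more than 20 units below local background (8, 2, 0 and 1 on replicates 1 to 4), because the fit on all spots gave a background mean of -273 in Cy3 of replicate 1. Ratios were normalized by loess within arrays. A probe was tested where 3 or more mice of a genotype were well above background, the brightest standing for its gene. The fit used limma 3.58.1 in R 4.3.3 with a dye intercept and Benjamini-Hochberg adjustment over all tested genes, at 0.05, two-sided. Its moderation of variances used the tested genes only, a choice made after a fit over all probes had been seen. Signals within a dye were scaled with Aquantile. Scripts were tested on simulated data. Figures used matplotlib.

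The 9 genes and all lists were chosen with earlier results of these data known. Named are the 9 genes with each probe, up to 3 genes per pathway list with the lowest p among those of 1 sign on all 4 arrays, the 5 genes most correlated with Igfbp1, and Ppp1r8; 1 gene that this rule names is not reported here. Replicate numbers name arrays, each of which pairs 1 knockout and 1 control mouse in its ratio.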

Additional observations from a re-analysis of the deposited data

Results flagged for a closer look

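Of 49 sets of 4 array values that were examined for a sample apart from the others, 2 held one, where chance gives about 1 in 20. Pck1 was at -1.95 on replicate 3 and between -0.69 and -0.49 on the other arrays. Bnip3 was at 0.68 on replicate 2 and between 0.11 and 0.14 on the others.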

How the results depend on the processing

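Over 16 other settings the estimates ran from -2.06 to -1.23 for Igfbp1 (limma adjusted p 0.00905 to 0.280), from -1.26 to -0.63 for Pck1 (0.0341 to 0.276), from -0.98 to -0.23 for G6pc, from -1.06 to -0.26 for Irs2 and from 0.20 to 0.50 for Irs1, and each kept its sign. Igfbp1 passed 0.05 only in the separate-channel fit (-1.64, adjusted p 0.00905). Leaving out 1 replicate at a time gave Igfbp1 -2.06 to -1.23.

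Genes called at an adjusted p of 0.05, against 0 here, numbered 8 with processed signals, 29 without background correction, 210 with median centring, 10 without the dye term, 382 with trend and robust eBayes, 261 without the filter on dim probes and 2764 in the separate-channel fit. At 0.1, against 907, they numbered 442 with normexp fitted on all spots, 1386 with median centring, 230 without the dye term, 1648 with trend and robust, 4243 in the separate-channel fit and 0 to 59 with 1 replicate left out (59 without replicate 1, 0 without any of the others). With variances moderated over all probes, the fit seen first and set aside after its counts were known, 1057 genes passed 0.05 and 2698 passed 0.1. Igfbp1 then had an adjusted p of 0.0515 and Pck1 0.0663. The choice of model therefore sets the number of genes called. Of the 9 genes, 2 passed an adjusted p of 0.05 in the separate-channel fit, where 2764 of 16302 genes did. At an unadjusted p of 0.05 that fit held 5 of the 9, and with median centring 1 was separated in both dyes. The shares of all genes that go with these last counts are not given here, so they are not read as results about the 9.

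Estimates near 0 changed sign. Ppargc1a was 0.0044 with median centring and 0.0067 as the mean over probes. Without replicate 1 Ppargc1a was 0.04 and Foxo1 0.02. Without replicate 3 Ppargc1a was 0.16, Foxo1 0.12 and Insr 0.0048, and without replicate 4 they were -0.24, -0.27 and -0.17, the other ends of their ranges. List medians moved by more than their spread over arrays in 4 cases. The causes were not tested. The limma fit of ratios was already paired by array, since each ratio pairs the mice of an array, and no further pairing was fitted. Slide and scan were not fitted as a batch because all arrays share them.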
